A study of Homo sapiens with 12 samples.

Results

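The expression of 9 genes that report on, or regulate, the transcriptional co-activator YAP was examined in A375 melanoma cells treated with SB-3CT, IFN-γ or both. The genes were CTGF, CYR61, ANKRD1, CRIM1, AJUBA, DLC1, AMOT, AMOTL1 and AMOTL2, taken by symbol from the 4918 genes of the table used here, and 9 of 9 symbols were found. The series holds mRNA sequencing of 12 samples in 4 groups of 3. Cells received neither agent (Control), SB-3CT alone, IFN-γ alone or both agents (SB-3CT+IFN-γ) for 24 h, where SB-3CT is an inhibitor of the gelatinases MMP2 and MMP9 and IFN-γ is a cytokine released by activated T cells. A375 is an established human melanoma cell line, so that all samples come from 1 line, and nothing in the labels says that the samples of a group were grown as separate cultures. The p-values below therefore measure only the spread between these samples, which may be technical.

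YAP and its relative TAZ are held in the cytoplasm by the Hippo kinase cascade, and once in the nucleus they bind TEAD transcription factors and switch on genes for matrix proteins, adhesion and cell division. CTGF, CYR61 and ANKRD1 are the genes most often read as a measure of this activity. The angiomotins AMOT, AMOTL1 and AMOTL2 are scaffold proteins of cell junctions that bind YAP and keep it out of the nucleus, and AMOTL2 is also known as a YAP target itself. In melanoma, YAP activity has been linked to invasion and to resistance to therapy.

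Values are given as FPKM, fragment counts scaled by transcript length and by the mapped fragments of the sample, which the deposited log2(FPKM + 1) values were converted to for printing, and tests were run on the log2 values. Summed FPKM ran from 121928 to 129692 per sample. It was higher in each sample with both agents (128299 to 129692) than in any other sample (at most 126550). The median log2 value was lower in the samples with both agents (1.89 to 1.94) than in any other (at least 2.05). Relative sequencing depth ran from 87.4% to 149.9% of the Control mean, with overlapping ranges in the 4 groups, while absolute depth is unknown. CXCL10, a chemokine induced by IFN-γ, averaged 81.7 FPKM with IFN-γ and 112 with both agents against 0.0167 in Control and was listed at 0 in SB-3CT. The melanoma markers CSPG4 and ERBB3 were present in every sample (26.3 to 49.0 and 29.0 to 57.8 FPKM), while the pigment cell genes DCT and CAPN3 stayed at or below 0.384 FPKM. CSPG4 averaged 48.5 FPKM in Control and 27.7 with both agents, and its part in the results below was not tested. The 7 keratinocyte, fibroblast, endothelial and myeloid markers in the table did not exceed 0.707 FPKM in any sample.

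Promoter sequence of the members is shown because TEAD factors, through which YAP acts, recognise the letters GGAATG, and the members differ in how often these letters stand upstream of the start. The table of RefSeq promoters (GRCh38.p14) held 6 of the 9 members, and the 250 bases before the start were placed on hg19, the build of the files, by an exact and unique match at the gene's main annotated start. GGAATG or its reverse complement CATTCC, given in capitals, occurred 3 times in the CTGF window (chr6:132272513-132272762, minus strand), 2 times in the ANKRD1 window (chr10:92680845-92681094, minus strand) and once in the AMOTL2 window (chr3:134093290-134093539, minus strand), each printed 5′ to 3′ toward the gene.
CTGF: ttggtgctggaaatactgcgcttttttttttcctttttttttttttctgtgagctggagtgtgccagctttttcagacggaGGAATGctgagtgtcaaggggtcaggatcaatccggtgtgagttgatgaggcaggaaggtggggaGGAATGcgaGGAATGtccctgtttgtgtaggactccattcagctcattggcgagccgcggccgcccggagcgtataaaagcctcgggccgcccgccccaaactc
ANKRD1: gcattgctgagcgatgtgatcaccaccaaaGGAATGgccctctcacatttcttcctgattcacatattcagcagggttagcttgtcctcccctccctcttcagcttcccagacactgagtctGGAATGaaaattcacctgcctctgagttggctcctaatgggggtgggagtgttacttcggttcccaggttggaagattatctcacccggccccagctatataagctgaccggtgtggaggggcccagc
AMOTL2: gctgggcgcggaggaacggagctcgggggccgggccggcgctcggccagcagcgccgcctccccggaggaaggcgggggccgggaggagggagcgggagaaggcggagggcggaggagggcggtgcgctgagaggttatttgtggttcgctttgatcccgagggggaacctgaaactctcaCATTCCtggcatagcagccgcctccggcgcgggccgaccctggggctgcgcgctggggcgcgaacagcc
Counted back from the start, the first base of the matches stood at -169, -104 and -95 in CTGF, at -220 and -128 in ANKRD1, and at -69 in AMOTL2. Of 35116 promoter windows of the same length, 11.9% held at least 1 such match, 0.94% at least 2 and 0.0826% at least 3, counting both strands. The windows of AJUBA, AMOT and AMOTL1 at their main start held none. The table also gave a second start for AJUBA, whose window (chr14:23446052-23446301, minus strand) held 1 match at -59, and for AMOTL2, whose window (chr3:134094260-134094509, minus strand) held none. A match describes the letters only and was not tested for binding.

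All 9 members were expressed. CRIM1 was the most abundant in Control at 35.4 ± 0.721 FPKM (SD, n = 3), followed by CYR61 at 25.5 ± 0.531, and DLC1 was the least abundant at 3.69 ± 0.284. AMOTL2, AMOTL1, CTGF and AJUBA lay between 14.7 and 19.4 FPKM, and AMOT and ANKRD1 at 5.08 and 4.19 FPKM. IFN-γ alone gave the highest group mean for 7 of the 9 genes, AMOT was highest in Control, and AMOTL2 was highest in SB-3CT with all 4 groups overlapping. CRIM1 was the gene in which each group stood clear of its neighbours in the order, from IFN-γ through Control and SB-3CT to both agents.

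**Figure D1:**
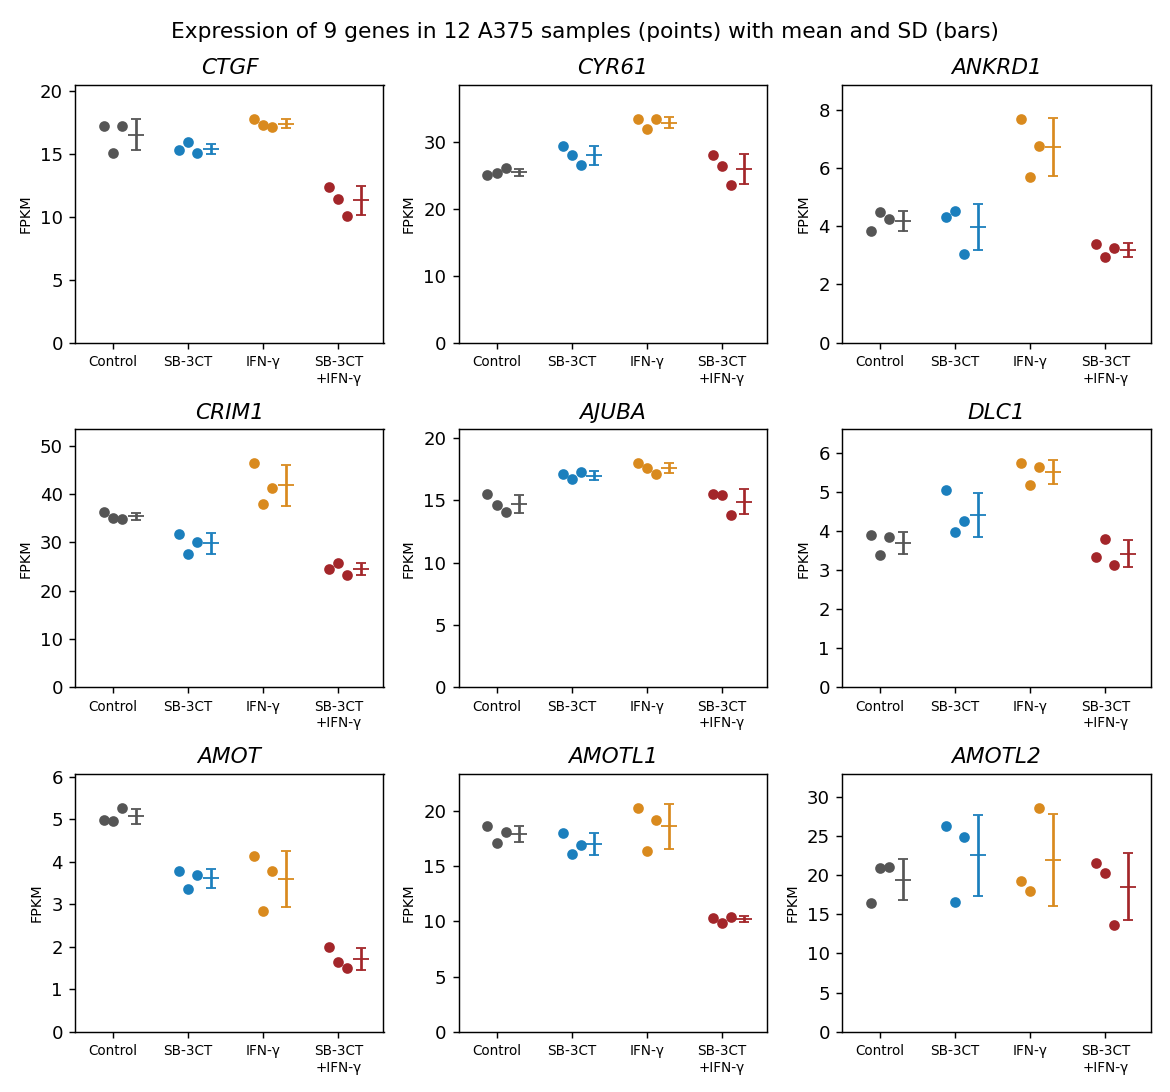
FPKM of each member in every sample, 1 panel a gene, with the 4 groups on the x axis, points for the 3 samples of a group and bars for the group mean and SD. IFN-γ alone gave the highest mean for AJUBA, AMOTL1, ANKRD1, CRIM1, CTGF, CYR61 and DLC1, and AMOT stepped down from 5.08 FPKM in Control to 1.72 with both agents.

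SB-3CT under IFN-γ was the comparison that the study itself made with these libraries, and here 8 of the 9 members fell when SB-3CT was added to IFN-γ and none rose (limma, adjusted p below 0.05). Over all 4918 genes, 31.5% were called lower in this comparison and 6.41% higher. The same 8 members had 3 samples with both agents that were all below the 3 with IFN-γ alone, which held for 39.6% of all genes. No member was higher in all 3 samples with both agents, against 9.35% of all genes. When a fold above 1.5 on the FPKM + 1 scale was asked for together with a limma p below 0.05 before adjustment, cut-offs like the study's but with another scale and test, 5 members were lower (AMOT, AMOTL1, ANKRD1, CRIM1 and CTGF) against 6.51% of all genes, and 0 were higher against 0.956%. On FPKM without the added 1, DLC1 also changed by more than this fold (-38.0%). The median change of the 9 members was -0.59 on the log2(FPKM + 1) scale, while it was -0.09 over all genes and -0.20 over the 3177 genes averaging 1 FPKM or more. The median gene was thus also shifted down on the deposited scale, by an amount that varied with transcript length, as given below. In bulk RNA, fewer cells that express a gene and less of its RNA per cell cannot be told apart.

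CTGF (chr6:132269316-132272512 in hg19, 5 exons in GENCODE 44) and CYR61 (chr1:86046444-86049633, 5 exons) encode secreted proteins of the CCN family, which bind integrins in the matrix. CTGF was measured at 17.8, 17.3 and 17.1 FPKM with IFN-γ and at 12.4, 11.4 and 10.1 with both agents. The samples with both agents were below every other sample of the series for this gene. Its level fell by 0.59 on the log2 scale (SE 0.08, adjusted p = 0.00247). CYR61 gave 33.4, 31.9 and 33.5 FPKM with IFN-γ and 28.0, 26.4 and 23.6 with both agents. Its fall was smaller, by 0.33 (SE 0.07, adjusted p = 0.00867), and left it overlapping the Control samples at 25.0, 25.4 and 26.1 FPKM.

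The ratio of CTGF to CYR61 within a sample does not change when all values of the sample are multiplied by a single factor. As log2, it averaged -0.63 ± 0.11 in Control, -0.86 ± 0.07 with SB-3CT, -0.92 ± 0.05 with IFN-γ and -1.21 ± 0.03 with both agents (SD, n = 3 each). The groups compared did not overlap in any of the 4 comparisons, and each gave p = 0.1 in a two-sided exact permutation test, the smallest p that 3 against 3 samples allow. CTGF was thus the lower of the pair in every sample, by the most where both agents were present.

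ANKRD1 (chr10:92671853-92680844, 9 exons) encodes a nuclear ankyrin repeat protein that is induced by stretch and by YAP. It was measured at 7.69, 5.70 and 6.75 FPKM with IFN-γ and at 3.38, 2.93 and 3.24 with both agents. No sample with both agents came near those with IFN-γ alone, and the change was -0.88 (SE 0.11, adjusted p = 0.00236), the largest of the 9 members on the deposited scale. CRIM1 (chr2:36582921-36778278, 17 exons), a transmembrane protein with cysteine-rich repeats that binds BMP ligands, gave 46.4, 37.9 and 41.2 FPKM with IFN-γ and 24.5, 25.7 and 23.2 with both agents. It fell by 0.75 (SE 0.08, adjusted p = 0.00207), and its mean FPKM changed by -41.5%.

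DLC1, known as a tumour suppressor, was measured at 5.73, 5.16 and 5.62 FPKM with IFN-γ and at 3.32, 3.79 and 3.12 with both agents. The groups did not overlap, and the gene fell by 0.56 (SE 0.09, adjusted p = 0.00361). AJUBA (chr14:23440386-23451760, 8 exons), a LIM protein that binds LATS kinases and restrains the Hippo cascade, gave 18.0, 17.6 and 17.1 FPKM with IFN-γ and 15.5, 15.4 and 13.8 with both agents. Its change was the smallest of the called members at -0.22 (SE 0.06, adjusted p = 0.029). AJUBA kept this call in 1 of the 6 fits that left out a sample, with adjusted p from 0.0442 to 0.081, and its direction was not kept with median ratio scaling or with the length trend removed, both described below.

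**Figure D2:**
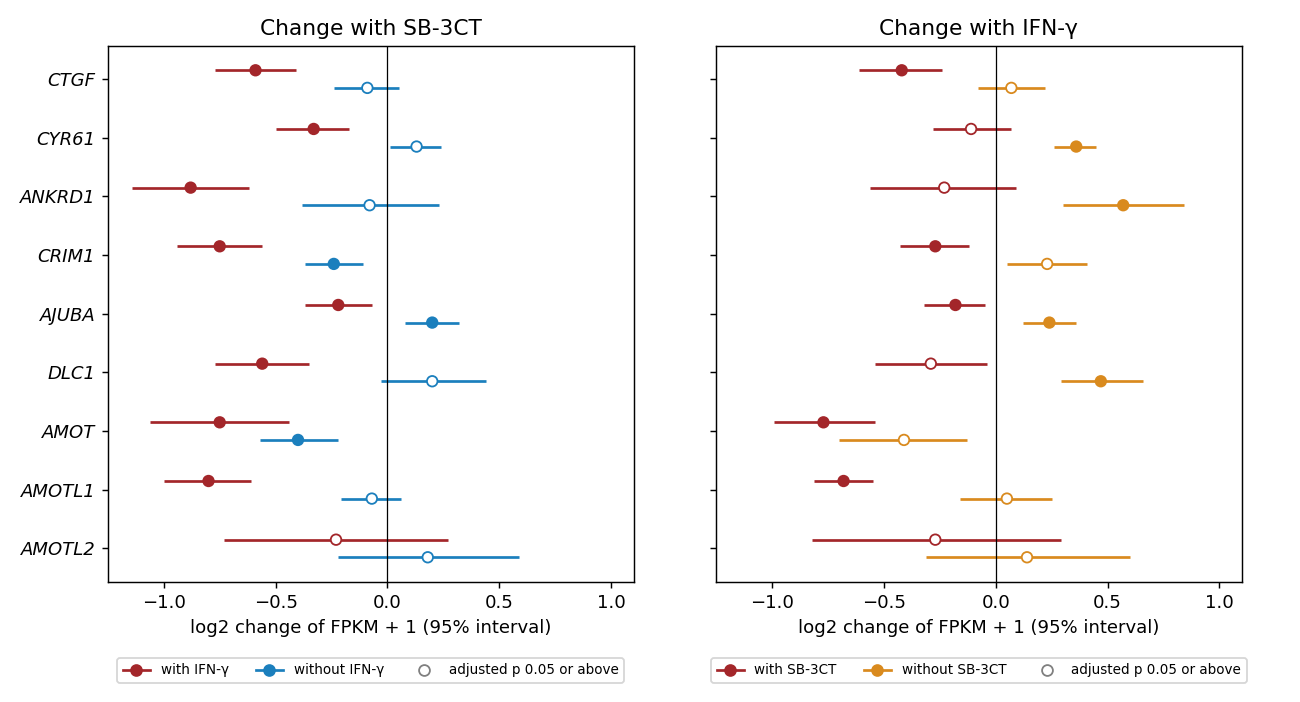
Log2 change of FPKM + 1 with its 95% interval for each member, on the left for SB-3CT with IFN-γ (against IFN-γ) and without it (against Control), on the right for IFN-γ with SB-3CT (against SB-3CT) and without it (against Control). Filled points have an adjusted p below 0.05, and on the left 8 of 9 intervals with IFN-γ lie below 0, of which AJUBA at -0.22 did not keep its direction with median ratio scaling or with the length trend removed.

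AMOT (chrX:112018105-112084059, 14 exons) and AMOTL1 (chr11:94501522-94609913, 13 exons) were the angiomotins that fell. AMOT was measured at 4.15, 2.85 and 3.78 FPKM with IFN-γ and at 2.00, 1.65 and 1.51 with both agents, a change of -0.75 (SE 0.13, adjusted p = 0.00483). AMOTL1 gave 20.3, 16.4 and 19.2 FPKM with IFN-γ and 10.3, 9.86 and 10.4 with both agents. The samples with both agents lay within 1 FPKM of each other and well below all other samples of the series, and AMOTL1 fell by 0.80 (SE 0.08, adjusted p = 0.00207). AMOTL2 (chr3:134074189-134093289, 10 exons) gave 19.2, 17.9 and 28.6 FPKM with IFN-γ and 21.5, 20.3 and 13.6 with both agents. Its groups overlapped, its 95% interval ran from -0.73 to 0.27 (adjusted p = 0.451), and its spread was the widest of the members, so that a fall of up to 0.73 lay within its interval.

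The summed FPKM of the 3 angiomotins averaged 42.4 ± 2.25 in Control, 43.1 ± 6.27 with SB-3CT, 44.1 ± 7.23 with IFN-γ and 30.4 ± 4.30 with both agents. Shares of this sum do not change when all values of a sample are multiplied by a single factor. They were not recomputed on scales that treat the genes of a sample unequally. The transcripts of AMOT, AMOTL1 and AMOTL2 differ in length, at 7613, 8980 and 4868 bases. AMOT made up 12.5%, 11.6% and 11.9% of it in the Control samples, 7.90%, 9.33% and 8.16% with SB-3CT, 9.51%, 7.68% and 7.32% with IFN-γ, and 5.92%, 5.19% and 5.89% with both agents. Every treated sample was below every Control sample, and every sample with both agents was below every sample with a single agent. Each of the 4 comparisons of the AMOT share gave p = 0.1 in a two-sided exact permutation test, again the smallest possible. AMOTL1 averaged 42.6% ± 4.81 with IFN-γ and 34.1% ± 5.82 with both agents, and AMOTL2 49.2% ± 5.80 and 60.2% ± 6.01, with overlapping samples and an exact permutation p of 0.2 for each.

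**Figure D3:**
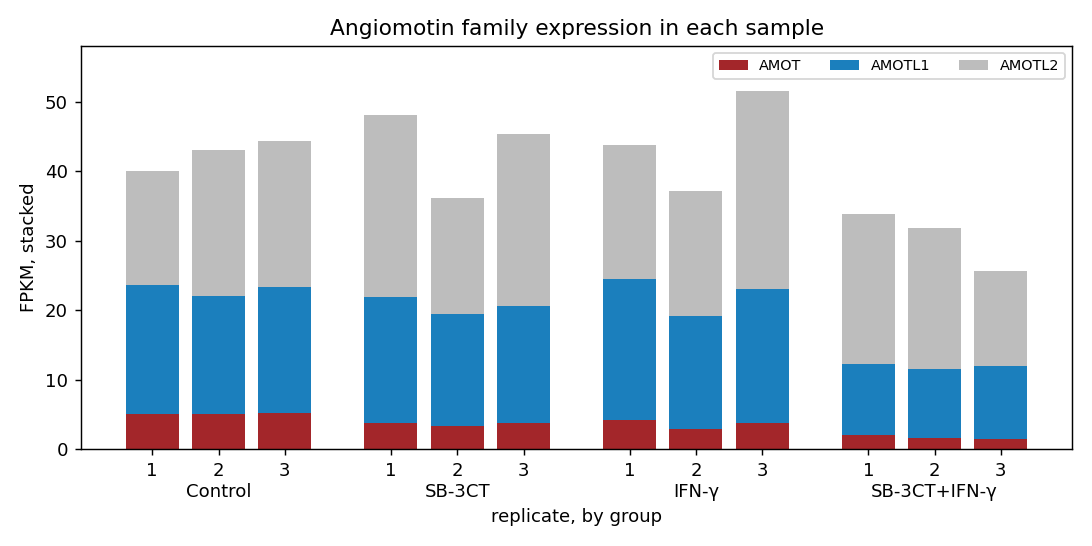
FPKM of AMOT, AMOTL1 and AMOTL2 stacked in each of the 12 samples, ordered by group and replicate. The sum lies between 25.6 and 33.8 FPKM in the samples with both agents and between 36.1 and 51.6 in all others, and AMOT takes 5.19% to 5.92% of it with both agents against 11.6% to 12.5% in Control.

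The downward shift of the median gene with both agents bears on all of these values, so the comparison was repeated on 3 other scales. Dividing each sample by the median ratio of its genes to the series mean moved the median of the genes averaging 1 FPKM or more from -0.20 to 0.00, and the median of the 9 members to -0.37. On that scale 6 members were called lower (AMOT, AMOTL1, ANKRD1, CRIM1, CTGF and DLC1) against 16.5% of all genes, and none higher against 15.5%. Quantile normalization left 7 called lower, with CYR61 added, against 14.5% of all genes. The deposited changes also varied with transcript length, from a median of 0.03 for transcripts of 249 to 2242 bases to -0.39 for those of 4154 to 24709 bases, and 6 of the 9 members (AJUBA, AMOT, AMOTL1, AMOTL2, CRIM1 and DLC1) fall in the longer class. With this trend removed, 5 members were called lower (AMOT, AMOTL1, ANKRD1, CRIM1 and CTGF) against 11.6% of all genes. The part of transcript length in the deposited changes was not tested further.

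AMOT, AMOTL1, ANKRD1, CRIM1 and CTGF were called lower on all 4 scales and in each of the 6 fits that left out a sample. ANKRD1, whose transcript of 1790 bases is the shortest of the members, changed by -0.88 on the deposited scale, -0.69 with median ratio scaling, -0.58 with quantile normalization and -0.83 with the length trend removed. AMOTL1, whose transcript of 8980 bases is the longest, changed by -0.80, -0.58, -0.61 and -0.38. DLC1 lost its call with the length trend removed (-0.21, adjusted p = 0.0873), and CYR61 lost it with median ratio scaling (-0.10, adjusted p = 0.26) and with the length trend removed (-0.19, adjusted p = 0.071). AJUBA was not called on any of the 3 scales, at 0.00 (adjusted p = 0.987), -0.02 (adjusted p = 0.873) and 0.09 (adjusted p = 0.351).

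SB-3CT without IFN-γ changed fewer members. AJUBA rose, 1 of 9 members against 5.37% of all genes called higher, and AMOT and CRIM1 fell, 2 of 9 against 6.87% called lower, and the median change of the members was -0.07 against -0.01 over all genes. AJUBA was measured at 15.5, 14.6 and 14.1 FPKM in Control and at 17.1, 16.7 and 17.3 with SB-3CT, a change of 0.20 (SE 0.05, adjusted p = 0.0474). AMOT gave 4.98, 4.97 and 5.28 FPKM in Control and 3.79, 3.37 and 3.70 with SB-3CT, a change of -0.40 (SE 0.07, adjusted p = 0.0224). CRIM1 gave 36.2, 35.0 and 34.9 FPKM in Control and 31.8, 27.6 and 30.1 with SB-3CT, a change of -0.24 (SE 0.06, adjusted p = 0.0381). All 3 genes had samples that did not overlap between the groups, as did CYR61 and DLC1, which were higher with SB-3CT in every sample but were not called (0.13, adjusted p = 0.127, and 0.20, adjusted p = 0.218). Non-overlap in the higher direction thus held for 3 members against 14.2% of all genes and in the lower direction for 2 against 19.7%. These calls stood close to the threshold, since AJUBA passed in 0 of the 6 fits that left out a sample, AMOT in 1 and CRIM1 in 1, and with the replicate number as a block all 3 were lost (adjusted p = 0.0811, 0.0527 and 0.0564). AJUBA also missed it after quantile normalization. No member passed the fold of 1.5 on the FPKM + 1 scale, which 0.427% of all genes did in the higher and 0.569% in the lower direction.

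CTGF without IFN-γ was at 17.2, 15.1 and 17.2 FPKM in Control and at 15.3, 15.9 and 15.1 with SB-3CT, with overlapping samples and a change of -0.09 (adjusted p = 0.376). AMOTL1 changed by -0.07 (adjusted p = 0.458), ANKRD1 by -0.08 (adjusted p = 0.751) and AMOTL2 by 0.18 (adjusted p = 0.533). The groups overlapped for each of these genes, and AMOTL2 spread from 16.6 to 26.2 FPKM with SB-3CT alone.

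IFN-γ alone raised 4 of the 9 members (AJUBA, ANKRD1, CYR61 and DLC1) against 8.46% of all genes called higher. None was called lower against 11.0%, and the median change of the members was 0.23 against -0.02 over all genes. CYR61 rose from 25.0, 25.4 and 26.1 FPKM in Control to 33.4, 31.9 and 33.5 with IFN-γ, a change of 0.36 (SE 0.04, adjusted p = 0.00233). DLC1 rose from 3.88, 3.37 and 3.83 FPKM to 5.73, 5.16 and 5.62, a change of 0.47 (SE 0.08, adjusted p = 0.00875). Neither gene had overlapping groups, and both were called in each of the 6 fits that left out a sample. ANKRD1 rose from 3.83, 4.50 and 4.24 FPKM to 7.69, 5.70 and 6.75, by 0.57 (SE 0.11, adjusted p = 0.017), and was called in 3 of the 6 such fits but not with the replicate block (adjusted p = 0.0582). AJUBA rose by 0.24 (SE 0.05, adjusted p = 0.0211) and was called in 2 of the 6.

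CTGF did not follow CYR61 here, and its change with IFN-γ was 0.07 (adjusted p = 0.476), with samples that overlapped those of Control. AMOT had all 3 IFN-γ samples below all Control samples but missed the threshold at -0.41 (adjusted p = 0.0561), and CRIM1 had all 3 above at 0.23 (adjusted p = 0.0809). AMOT was called lower and CRIM1 higher on each of the 3 other scales. Non-overlap held for 5 members in the higher direction against 15.0% of all genes and for 1 in the lower direction against 22.0%. AMOTL1 and AMOTL2 changed by 0.05 (adjusted p = 0.744) and 0.14 (adjusted p = 0.661), with overlapping groups. No member passed the fold of 1.5 on the FPKM + 1 scale, against 3.21% of all genes in the higher and 1.55% in the lower direction, while ANKRD1 was higher by 60.3% on FPKM itself.

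IFN-γ added to SB-3CT lowered 5 of the 9 members (AJUBA, AMOT, AMOTL1, CRIM1 and CTGF) against 32.7% of all genes, and raised none against 7.85%. The median of the members was -0.27 against -0.11 over all genes and -0.21 over the genes averaging 1 FPKM or more. This comparison shares the samples with both agents with the first one and the SB-3CT samples with the second, so its values are not a separate line of evidence. AMOT went from 3.79, 3.37 and 3.70 FPKM to 2.00, 1.65 and 1.51, a change of -0.77 (adjusted p = 0.00177), and AMOTL1 from 18.0, 16.1 and 16.9 to 10.3, 9.86 and 10.4, a change of -0.68 (adjusted p = 0.000472). AMOT and AMOTL1 were called on all 4 scales and were the 2 members to pass the fold of 1.5 on the FPKM + 1 scale, against 3.4% of all genes, with 0 in the higher direction against 2.26%. The samples of 6 members stood lower without overlap, the 5 called and DLC1, against 41.9% of all genes, and of 0 higher against 9.84%. CTGF changed by -0.42 (adjusted p = 0.00668), but by -0.19 (adjusted p = 0.115) with median ratio scaling. CRIM1 at -0.27 (adjusted p = 0.0178) and AJUBA at -0.18 (adjusted p = 0.0417) were not called on any of the 3 other scales, where AJUBA changed sign, and AJUBA was called in 0 of the 6 fits that left out a sample and CRIM1 in 3. ANKRD1, CYR61 and DLC1, which IFN-γ alone raised, changed by -0.23, -0.11 and -0.29 in cells that had SB-3CT, and none of these passed (adjusted p = 0.215, 0.285 and 0.0642), and CYR61 changed sign on each of the 3 other scales.

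Whether the response to SB-3CT differed with and without IFN-γ was tested directly, as the interaction in a fit of all 12 samples. The SB-3CT change was more negative with IFN-γ for 7 of the 9 members, against 17.6% of all genes called in this direction and 4.74% in the other. The difference was largest for ANKRD1 at -0.80 (adjusted p = 0.0114), DLC1 at -0.77 (adjusted p = 0.00552) and AMOTL1 at -0.73 (adjusted p = 0.0032). CRIM1 gave -0.51 (adjusted p = 0.00837), CTGF -0.50 (adjusted p = 0.00835), CYR61 -0.46 (adjusted p = 0.00616) and AJUBA -0.42 (adjusted p = 0.00614). The differences of AMOTL1, ANKRD1, CYR61 and DLC1 were called in all 7 alternative fits, while CTGF missed the threshold with median ratio scaling (-0.31, adjusted p = 0.0595) and CRIM1 with the length trend removed (-0.21, adjusted p = 0.0573). AJUBA missed it on each of the 3 other scales, at -0.23 (adjusted p = 0.0733), -0.21 (adjusted p = 0.104) and -0.17 (adjusted p = 0.238). With median ratio scaling 5 members were called against 5.59% of all genes. A difference beyond 1.5-fold on the FPKM + 1 scale was seen for 3 members (AMOTL1, ANKRD1 and DLC1) against 2.22% of all genes, and for 0 in the other direction against 1.06%. AMOT, which fell with SB-3CT in both settings, gave a difference of -0.35 that did not pass (adjusted p = 0.12), and AMOTL2 one of -0.41 (adjusted p = 0.371).

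Other genes of the pathway were read from 5 lists, chosen with earlier results of these data known. The counts for SB-3CT under IFN-γ stand against 31.5% of all genes called lower on the deposited scale, 16.5% with median ratio scaling and 11.6% with the length trend removed. The list medians stand against -0.09 over all genes and -0.20 over the genes averaging 1 FPKM or more, on the deposited scale. Most of the listed genes averaged 1 FPKM or more. Among 18 other YAP and TAZ target genes for adhesion, matrix and signalling, 12 fell and none rose when SB-3CT was added to IFN-γ, with a median of -0.33, and 9 fell with median ratio scaling and 5 with the length trend removed. The largest falls among those averaging 1 FPKM or more were in ARHGAP29, from 2.13 ± 0.377 to 0.958 ± 0.0624 FPKM (-0.67, adjusted p = 0.00329), in the Rac activator DOCK5 (-0.59, adjusted p = 0.00288) and in the Arf-inactivating protein ASAP1 (-0.58, adjusted p = 0.00313). Among 16 proliferation targets 10 fell and none rose, with a median of -0.28, but with median ratio scaling 6 fell and 2 rose, and with the length trend removed 4 fell. The mitotic protein CENPF fell from 10.3 ± 1.07 to 4.86 ± 0.566 FPKM (-0.95, adjusted p = 0.00207), the cytokinesis factor ECT2 by 0.89 (adjusted p = 0.00207) and the CDK inhibitor CDKN2C by 0.61 (adjusted p = 0.00194).

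Of 14 Hippo regulators at junctions and polarity complexes, 9 fell and none rose (4 with median ratio scaling and 2 with the length trend removed), among them N-cadherin, CDH2 (-0.70, adjusted p = 0.00209), β-catenin, CTNNB1 (-0.70, adjusted p = 0.00236), and the scaffold DLG1 (-0.51, adjusted p = 0.0154). After quantile normalization DLG1 lost its call (-0.24, adjusted p = 0.111), while CDH2 and CTNNB1 kept theirs. Of 13 genes for YAP and TAZ turnover and Wnt signalling, 5 fell, a share near the 31.5% of all genes, and none rose, but 3 fell and 3 rose with median ratio scaling and 2 fell and 4 rose with the length trend removed. APC, a scaffold of the β-catenin destruction complex, fell by 0.63 (adjusted p = 0.0027), and the ubiquitin ligase subunits CUL1 and CUL4A by 0.53 and 0.49 (adjusted p = 0.00392 and 0.00368). The other two, named after their values were seen, were CSNK1A1 and DVL2. Of 2 ankyrin repeat relatives of ANKRD1, neither reached a mean of 1 FPKM, and ANKRD23, named after its value was seen, was called lower on the deposited scale but not with median ratio scaling.

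With SB-3CT alone, where 5.37% of all genes were called higher and 6.87% lower, the lists held genes called in both directions. Of the 18 adhesion and matrix targets 2 rose and 1 fell, led by the phosphatase DUSP1, which rose from 9.25 ± 0.632 to 17.2 ± 0.363 FPKM (0.83, adjusted p = 0.000948), followed by tissue factor, F3 (0.37, adjusted p = 0.0469), while EMP2, a tetraspan membrane protein, fell by 0.21 (adjusted p = 0.0357). Of the 16 proliferation targets 3 rose and 5 fell, with CDC20 at 0.32 (adjusted p = 0.00665) and E2F1 at 0.27 (adjusted p = 0.0292) above and ECT2 at -0.47 (adjusted p = 0.0263) and CDK1 at -0.33 (adjusted p = 0.0307) below Control, and with BIRC5 above and CCNA2, CDKN2C and DUT below as the others called, named after their values were seen. With median ratio scaling 6 of these 16 rose and 4 fell, and with the length trend removed 6 rose and 5 fell. No share of all genes was worked out on these scales for SB-3CT alone, so the counts there describe the listed genes only. CDH2 was the single junction gene to fall (-0.33, adjusted p = 0.0314) and none of that list rose. Of the 13 turnover and Wnt genes 4 rose, among them CSNK1D (0.28, adjusted p = 0.0183) and AXIN1 (0.26, adjusted p = 0.0265) and, named after their values were seen, DDB1 and DVL3, and none fell. Neither ankyrin repeat relative was called.

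With IFN-γ alone, where 8.46% of all genes were called higher and 11.0% lower, 6 of the 16 proliferation targets rose and none fell, among them ESPL1, which encodes separase (0.39, adjusted p = 0.0407), and cyclin D1, CCND1 (0.33, adjusted p = 0.0284). Of the 18 adhesion and matrix targets 1 rose and 3 fell. The receptor tyrosine kinase AXL rose from 41.2 ± 1.45 to 56.4 ± 3.71 FPKM (0.44, adjusted p = 0.00404), and DDAH1, which breaks down methylated arginines, fell by 0.41 (adjusted p = 0.0499). The others that fell, named after their values were seen, were the growth factors AREG and BMP4. DVL2, a transducer of Wnt signals, was the 1 turnover and Wnt gene to rise (0.23, adjusted p = 0.0153), and no junction gene or ankyrin repeat relative was called. With median ratio scaling 5 adhesion and matrix targets rose and 3 fell, and the share of all genes on that scale was not worked out for IFN-γ alone.

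When IFN-γ was added to SB-3CT, 32.7% of all genes were called lower and 7.85% higher. Of the 18 adhesion and matrix targets 12 fell and none rose, led by DDAH1 (-0.72, adjusted p = 0.00161) and the endocytic adaptor DAB2 (-0.48, adjusted p = 0.00896). With median ratio scaling 4 of the adhesion and matrix targets fell, and DAB2 missed the threshold (-0.28, adjusted p = 0.0543). Of the proliferation targets 8 fell and 1 rose, but none fell with median ratio scaling. On the deposited scale ECT2 fell by 0.41 (adjusted p = 0.0224) and cyclin A2, CCNA2, by 0.31 (adjusted p = 0.0222), while the nucleotide-clearing enzyme DUT rose by 0.23 (adjusted p = 0.00332). Of the junction genes 8 fell, led by DLG1 (-0.62, adjusted p = 0.00585) and CDH2 (-0.56, adjusted p = 0.00346), and of the turnover and Wnt genes 10, led by DDB1 (-0.61, adjusted p = 0.00068) and CUL1 (-0.49, adjusted p = 0.0195), with none rising in these lists. With median ratio scaling 4 and 2 of them fell. CUL1 missed the threshold there (-0.26, adjusted p = 0.123) and with quantile normalization (-0.32, adjusted p = 0.0974). For IFN-γ added to SB-3CT no share of all genes was worked out with median ratio scaling, so its counts there describe the listed genes only. Of the ankyrin repeat relatives ANKRD2, named after its value was seen, was called lower on the deposited scale but not with median ratio scaling.

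The SB-3CT change was more negative with IFN-γ than without for 10 of the 18 adhesion and matrix targets, 10 of the 16 proliferation targets, 6 of the 14 junction genes, 5 of the 13 turnover and Wnt genes and neither ankyrin repeat relative, and more positive for none of them, against 17.6% and 4.74% of all genes. With median ratio scaling the counts in the negative direction were 6, 4, 3, 2 and 0, against 5.59% of all genes, with 1 target of each kind more positive. With the length trend removed they were 2, 4, 2, 1 and 0, and no share of all genes was worked out there.

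The genes whose levels ran most like the members over the 12 samples were taken from 3168 genes averaging 1 FPKM or more, by Pearson r on the log2 scale and as a description only, since all values share the same libraries and their scaling. Closest to the mean of CTGF and CYR61 were ARSB (r = 0.95), AMIGO3 (0.95), CPA4 (0.94), FAM129B (0.94) and DVL2 (0.93). CPA4, a carboxypeptidase, had means of 18.1 FPKM in Control, 20.0 with SB-3CT, 28.5 with IFN-γ and 14.6 with both agents. Of the other members DLC1 came closest (r = 0.89), and AMOTL2 was the least alike (r = 0.43). Closest to AMOTL1 were BRD8, DIDO1 and BBS2 (r = 0.99 each), EXOSC10 (0.98) and CKAP5 (0.98), whose means were likewise at their lowest with both agents. AMOT (r = 0.91) and CTGF (r = 0.93) ran close to AMOTL1, and AMOTL2 did not (r = 0.33).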

How the data were processed

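The authors aligned reads to hg19 with HISAT2 2.0.5 and estimated FPKM with StringTie 1.3.3, per the labels. The deposited table holds log2 values, read here as log2(FPKM + 1), for 4918 genes with symbols from A1BG to FAM46B, and other genes were not analysed here. All 12 sample columns were used and 0 columns of values were set aside. FPKM for printing is 2 to the deposited value, minus 1. Samples were grouped by their labels, and relative depth was read from the steps between values below 0.15 FPKM.

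Each comparison was fitted with limma 3.58.1 (R 4.3.3; trended eBayes) on the whole table, with the 6 samples compared or, for the interaction, all 12, and p-values were adjusted by Benjamini-Hochberg over 4918 genes. Called means an adjusted p below 0.05. The log2(FPKM + 1) scale understates the change of low genes. On simulated data with 200 genes changed by 1 on the log2 scale, 98% were recovered for SB-3CT+IFN-γ against IFN-γ, and 11 unchanged genes were also called. All changes of the members on the deposited scale were smaller than 1. Such changes were not simulated, so the 98% does not apply to them. Shares and ratios were tested by exact permutation (scipy 1.17.1, Python 3.11.15). Transcript lengths came from GENCODE 44 on hg19 and matched 98.6% of symbols. The alternatives were cut-offs on fold (on FPKM + 1) and unadjusted limma p, another pseudocount (0.1), a filter at a mean of 1 FPKM, 3 other scalings, a fit of all groups, the replicate number as a block, and leaving out each sample.

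The members, gene lists and named genes (all members, and the genes called with the largest falls and rises of each list, up to 3 each way for SB-3CT under IFN-γ and up to 2 otherwise, averaging 1 FPKM or more) were chosen with earlier results of these data known. Some results are not reported here.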

Additional observations from a re-analysis of the deposited data

Results flagged for a closer look

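The change with SB-3CT differed between cells with and without IFN-γ for 7 members, by the interaction in a limma fit of all 12 samples. The difference, with IFN-γ minus without, was -0.42 for AJUBA, -0.73 for AMOTL1, -0.80 for ANKRD1, -0.51 for CRIM1, -0.50 for CTGF, -0.46 for CYR61 and -0.77 for DLC1 on the log2(FPKM + 1) scale. With other scalings the call was lost for AJUBA on all 3 (down to -0.17, adjusted p = 0.238), for CTGF with median ratio scaling (adjusted p = 0.0595) and for CRIM1 with the length trend removed (adjusted p = 0.0573). Among all genes 17.6% were called in this direction. Groups of 3 samples were too small to be searched for single samples that stand apart.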

How the results depend on the processing

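Of 765 values of single members under other settings, 644 kept their direction and their side of the threshold. Of the others, 88 lost a call and 18 gained one without a change of direction, and 15 changed direction, some of which also lost a call. Other cut-offs, the filter, the block, the fit of all groups and another variance model leave the change itself as it was. Direction could not differ in those settings. With a fold of 1.5 on the FPKM + 1 scale and an unadjusted limma p below 0.05, 5 members were lower for SB-3CT under IFN-γ, 0 were higher and 0 lower for SB-3CT alone, 0 were higher for IFN-γ alone, 2 were lower for IFN-γ added to SB-3CT, and 3 differed in their SB-3CT change. With a log2 change over 0.5 and p below 0.5, these counts were 6 lower for SB-3CT under IFN-γ and 0 and 0 for SB-3CT alone. They were 1 for IFN-γ alone, 2 for IFN-γ added to SB-3CT and 4 for the difference. IFN-γ alone lowered 1 member (0 on the deposited scale) after a filter at a mean of 1 FPKM, with each of the 3 scalings and in the fit of all 4 groups. IFN-γ added to SB-3CT lowered 2 members with median ratio scaling and 3 with the replicate block, after removal of the length trend and with quantile normalization. SB-3CT alone raised 0 members with quantile normalization and 2 with the length trend removed, and under IFN-γ it lowered 5 with the length trend removed. The cause of these changes was not tested. The share of all genes called lower was worked out on the 3 other scales for SB-3CT under IFN-γ. For the difference it was worked out with median ratio scaling, in the negative direction. No share by direction was worked out for the looser rule, or for the remaining scales and fits. Those counts describe the members only.

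With the replicate number as a block, SB-3CT alone raised 0 and lowered 0 members. The labels do not say that equal numbers mark paired samples, and the main fits left the samples unpaired. Deviations of same-numbered samples correlated between -0.39 and 0.17, which cannot settle whether they share a batch. Over all genes, calls went from 1862 to 1609 with the block for SB-3CT under IFN-γ and from 602 to 259 for SB-3CT alone. Leaving out 1 sample gave 7 to 8 members lower and 0 higher for SB-3CT under IFN-γ, 0 to 0 higher and 0 to 2 lower for SB-3CT alone, 2 to 5 higher and 0 to 1 lower for IFN-γ alone, 3 to 4 lower for IFN-γ added to SB-3CT, and 7 to 8 for the difference. No share of all genes was worked out for the fits that left out a sample, so these counts describe the members only.

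Direction changed with median ratio scaling for AJUBA with SB-3CT under IFN-γ (0.00165) and for AJUBA (0.05) and CYR61 (0.13) with IFN-γ added to SB-3CT. It changed with quantile normalization for ANKRD1 with SB-3CT alone (0.00271) and for AJUBA (0.01) and CYR61 (0.03) with IFN-γ added to SB-3CT. With the length trend removed it changed for AJUBA (0.09) and AMOTL2 (0.12) with SB-3CT under IFN-γ, for AMOTL1 with SB-3CT alone (0.05) and with IFN-γ alone (-0.04), and for AJUBA (0.02) and CYR61 (0.02) with IFN-γ added to SB-3CT. Without 1 sample it changed for ANKRD1 with SB-3CT alone (0.06 without SB-3CT replicate 3, in a range from -0.16), for AMOTL1 with IFN-γ alone (-0.01 without IFN-γ replicate 1, in a range up to 0.13) and for AMOTL2 with IFN-γ alone (-0.06 without IFN-γ replicate 3, in a range up to 0.27). Absolute depth is unknown, which leaves the counting error of the members with low FPKM, AMOT, ANKRD1 and DLC1, without a value.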
